A study of Rattus norvegicus with 16 samples.

Results

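Gene expression in the rat knee 14 days after an intra-articular injection of sodium monoiodoacetate (MIA) was compared with that in intact knees. Arrays were chosen by the sample titles, 4 of MIA day 14 and 4 of intact animals out of the 16 arrays of the series, and the arrays of day 2 and day 28 (4 each) were used to see where day 14 stood apart. All animals were male Wistar rats. The MIA groups had received 3 mg of MIA once into the right knee, and the intact group (labelled day 0) had received nothing. Each array held the pooled RNA of 2 animals by the methods, although the labels speak of individual rats. The collected tissue was meniscus with the articular cartilage of tibia and femur, and it carried small pieces of joint capsule and bone. No saline-injected group was among the arrays, and 1 group of intact rats served all time points. The effect of MIA can therefore not be told apart from that of the injection or of the 14 days that passed.

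Articular cartilage is made by chondrocytes, which lay down a network of type II collagen filled with aggrecan and bound together by smaller matrix proteins. MIA blocks the glycolytic enzyme glyceraldehyde-3-phosphate dehydrogenase and kills chondrocytes, and in rats it leads to loss of cartilage, synovial inflammation and remodelling of the bone below. Matrix metalloproteinases and ADAMTS enzymes cut collagen and aggrecan, fibroblasts of capsule and synovium lay down scar-type matrix, and osteoclasts, which derive from the monocyte lineage, resorb bone and calcified cartilage.

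Values are log2 signals of Affymetrix Rat Gene 2.0 ST arrays, as normalised by the submitters, so that a log2 difference of 1 is a 2-fold change. Differences are day 14 minus intact with their standard error, and a gene was called when its adjusted p in a limma fit to all 16 arrays was under 0.05 after Benjamini-Hochberg adjustment over 36685 probe sets. In total 3350 probe sets were higher at day 14 (9.13%) and 2206 were lower (6.01%), of which 379 and 345 changed more than 2-fold. Among 18166 genes represented by their brightest probe set, 2216 were higher (12.2%) and 1588 lower (8.74%), with 160 and 275 past 2-fold, and the median log2 difference over all genes was -0.03. All day 14 arrays were above all intact arrays for 2698 genes (14.9%) and below them for 1805 (9.94%). These shares are the background against which the gene groups below are read. The arrays were alike in their medians (6.59 to 6.69) and correlated with each other at 0.959 to 0.992. A tissue of this kind holds many cell types, and in bulk RNA fewer cells of a type and less RNA per cell cannot be told apart.

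Cartilage genes were bright on the intact arrays, where type II collagen (Col2a1) lay at 11.91 ± 0.48 and aggrecan (Acan) at 11.46 ± 0.37 (mean ± SD, n = 4). The epithelial marker Epcam lay at 4.03 ± 0.07, and the mean of the epithelial list was 5.77. Fat cell genes were bright as well, with a list mean of 9.95 on the intact arrays against 9.56 for the cartilage list. Other tissues were present in uneven amounts. The mean over 26 skeletal muscle markers ranged from 6.88 to 9.96 on the intact arrays and from 8.54 to 11.21 on the day 14 arrays, with day 14 replicate 3 at the top and replicates 1 and 4 at the bottom. No muscle marker was called, although their median log2 difference was 1.20 (0.67 without day 14 replicate 3, 0.63 without intact replicate 1 and 1.84 without intact replicate 3, where 1 marker was called higher). The mean over the neutrophil, erythroid and progenitor markers of bone marrow was nearly constant on the intact arrays (9.13 to 9.30), whereas at day 14 it was 7.47 in replicate 1, 9.40 in replicate 2, 8.19 in replicate 3 and 7.60 in replicate 4. Day 14 replicate 2 was thus at the level of the intact arrays, and replicates 1 and 4 were more than 1 unit below it. Both marker means were entered as covariates in alternative fits. The marrow mean itself differed between the groups, so a call lost with it can reflect lower precision as well as a smaller difference. S100b went from -1.01 to -1.08 with the marrow mean and lost its call (adjusted p = 0.055). Cpa3 went from -1.24 to -0.66 and lost it too (adjusted p = 0.13). The part of marrow in such losses was not tested. Some calls of genes named in the text were lost with the marrow mean, namely those of Alox5, C1s, Cd86, Col3a1, Col11a2, Cpa3, Hyal2, Itga5, Itga10, Itgb1, Loxl3, Mfap4, Plin2, S100b, Sema3c, Sfrp4, Slc7a11, Smad6 and Sox6. The calls of Alox15, Hyal1, Il1b, Neto2, Scd, Siglec15 and Smad7 were lost with both means and not with the marrow mean alone. Those of Fzd4 and Mmp28 were lost in a fit to the 8 arrays alone, and some further losses are given beside the gene. Losses by the methods' t-test after Benjamini-Hochberg adjustment are not given there. That test lost 88 of the 173 calls of genes picked for naming, among them Clec3a, Chad, Olr1, Cx3cr1 and Atp6v0d2.

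**Figure D1:**
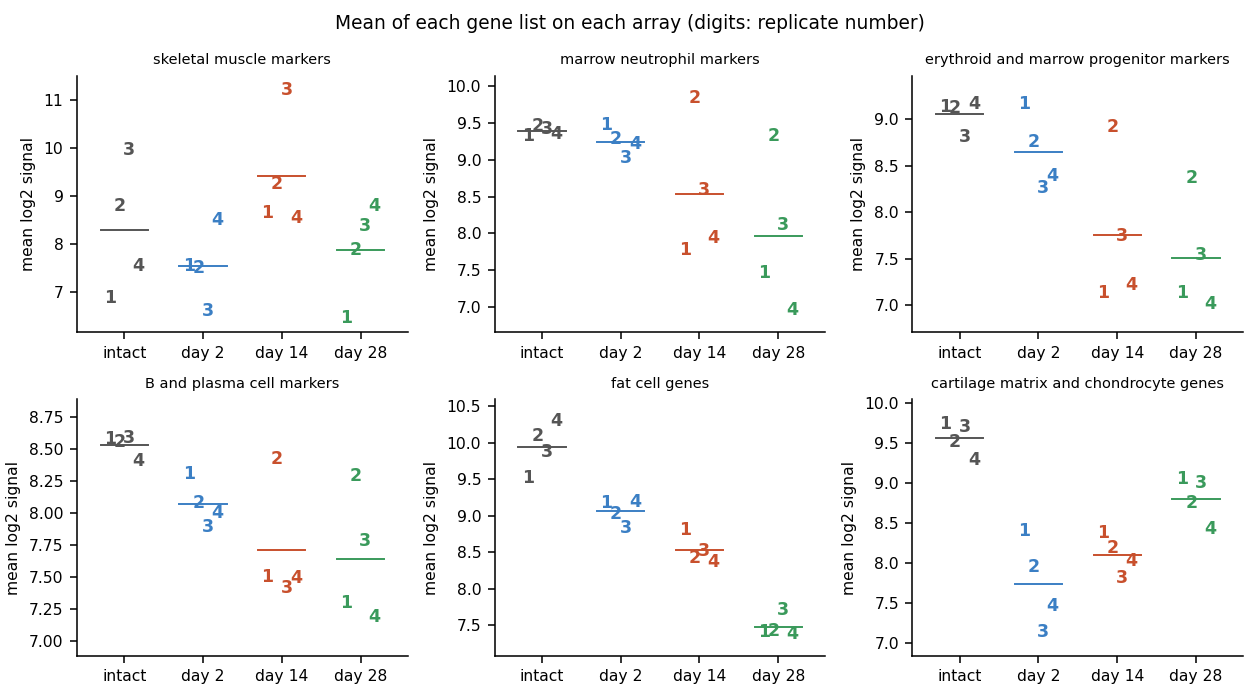
Mean log2 signal of 6 gene lists (vertical axes) on each of the 16 arrays, by group, with the replicate number as the symbol and the group mean as a line. Muscle markers reached 11.21 on day 14 replicate 3, marrow markers on day 14 replicate 2 stayed at the intact level, and the fat cell and cartilage lists separated all day 14 from all intact arrays.

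Marrow transcripts were low on 3 of the 4 day 14 arrays, and their calls were not stable. Of 18 erythroid and progenitor genes 14 were lower and none higher (median -1.12), among them the red cell membrane anion exchanger Slc4a1 (-2.50 ± 0.73, adjusted p = 0.031) and the haemoglobin-stabilising protein Ahsp (-2.36 ± 0.75, adjusted p = 0.045). This count dropped to 4 when day 14 replicate 1, day 14 replicate 4 or intact replicate 4 was left out, to 6 without day 14 replicate 3, and to 7 without intact replicate 1 or 2. It was 3 with the marrow covariate. That covariate is a mean that holds these genes themselves, so it takes out part of their own difference by construction and cannot show whether their calls are stable. The Slc4a1 call was lost without day 14 replicate 1 or 4 or intact replicate 1, 2 or 4 and the Ahsp call without any array but day 14 replicate 2 (adjusted p from 0.057 to 0.13), and both were lost with the marrow covariate. Of 20 neutrophil genes of marrow none was lower in the full fit (median -1.03), 1 was higher (Mmp9, described with the metalloproteinases) and 11 were lower without day 14 replicate 2. Among 18 B and plasma cell genes 10 were lower (median -1.08), including both chains of the B cell receptor signalling unit, Cd79a (-1.52 ± 0.38, adjusted p = 0.014) and Cd79b (-1.37 ± 0.34, adjusted p = 0.013). The B cell count was 6 without day 14 replicate 1, 3 or 4 or intact replicate 3, and 1 with the marrow covariate, where Cd79a and Cd79b were not called. Of 21 T and NK cell genes 1 was higher (Cd8b, 0.89) and none lower.

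The largest increases at day 14 were found in genes of matrix breakdown, activated fibroblasts and chemokines. Mmp12 encodes macrophage metalloelastase, and its log2 signals were 8.08, 7.35, 7.19 and 6.95 on the intact arrays and 10.74, 10.70, 10.82 and 11.31 on the day 14 arrays. The groups were separated by more than 2 log2 units, and the fitted difference was 3.50 ± 0.26, adjusted p = 2.3e-06. Tnn, a tenascin of bone surfaces and remodelling tissue, rose by 3.22 ± 0.26, adjusted p = 4.6e-06, and Lrrc15, a membrane protein of fibroblasts activated by TGF-beta, rose by 3.02 ± 0.21, adjusted p = 1.4e-06. Il6, the cytokine interleukin 6, lay at 5.23, 5.96, 5.83 and 5.25 in intact tissue and at 8.40, 7.90, 8.67 and 9.55 at day 14. Every day 14 array was above every intact array, with a difference of 3.06 ± 0.38, adjusted p = 0.0001. The monocyte chemokines Ccl9 (2.89 ± 0.21, adjusted p = 2.2e-06) and Ccl7 (2.71 ± 0.25, adjusted p = 1.2e-05) and the stromelysin Mmp3 (2.29 ± 0.25, adjusted p = 4.9e-05) followed.

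Further leading genes were of diverse function. Agtr2 encodes the type 2 receptor of angiotensin II, and its signals were 5.30, 5.43, 5.87 and 5.81 in intact tissue against 8.14, 8.03, 8.58 and 8.80 at day 14 (2.78 ± 0.30, adjusted p = 4.3e-05). C1qtnf3, a secreted protein of the C1q and TNF family that is made by growing cartilage and mesenchymal cells, changed from 7.22, 7.19, 6.71 and 7.06 to 9.64, 9.91, 9.96 and 9.57 (2.72 ± 0.25, adjusted p = 1.1e-05). In both genes the lowest day 14 array was more than 2 log2 units above the highest intact array. Gpr15lg, the peptide ligand of the chemoattractant receptor GPR15, rose by 2.71 ± 0.23, adjusted p = 7.4e-06. Olr1, a scavenger receptor for oxidised low density lipoprotein, rose by 2.20 ± 0.26, adjusted p = 6.6e-05. Gnas, which encodes the stimulatory G protein alpha subunit and other transcripts of an imprinted locus, rose by 2.46 ± 0.34, adjusted p = 0.00027. The list of 12 leading genes was drawn from 159 genes that were called, past 2-fold and without overlap between the groups.

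Most of the largest decreases were in genes of chondrocytes. Clec3a, a C-type lectin of cartilage, lay at 12.68, 12.38, 12.66 and 12.05 on the intact arrays and at 8.99, 8.43, 6.20 and 7.57 on the day 14 arrays. Its day 14 values were widely spread, yet the highest of them was more than 3 units below the lowest intact value, and the difference was -4.65 ± 0.59, adjusted p = 0.00012. Scrg1, a protein linked to chondrogenesis, fell (-3.41 ± 0.36, adjusted p = 3.5e-05), and so did the chondrocyte adhesion protein Chad (chondroadherin, -2.91 ± 0.41, adjusted p = 0.00026). The same direction was found for Ucma, a matrix protein of upper zone chondrocytes (-2.85 ± 0.28, adjusted p = 2.1e-05). It was also found for the cytokine-like protein Cytl1 (-2.76 ± 0.17, adjusted p = 4e-07), and for the gene Mia, a secreted cartilage protein that shares its name with the compound by coincidence (-2.81 ± 0.39, adjusted p = 0.00026). The secreted WNT antagonists Wif1 (-2.97 ± 0.29, adjusted p = 1.5e-05) and Frzb (-2.78 ± 0.17, adjusted p = 4e-07) belonged to the same group of 12. Zfp385b, a zinc finger gene (-2.89 ± 0.18, adjusted p = 4e-07), and Crispld1, a secreted cysteine-rich protein (-2.85 ± 0.32, adjusted p = 5.4e-05), completed it together with Col2a1 and the macrophage receptor Vsig4, which are described below. In all, 243 genes met the same 3 conditions in this direction.

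**Figure D2:**
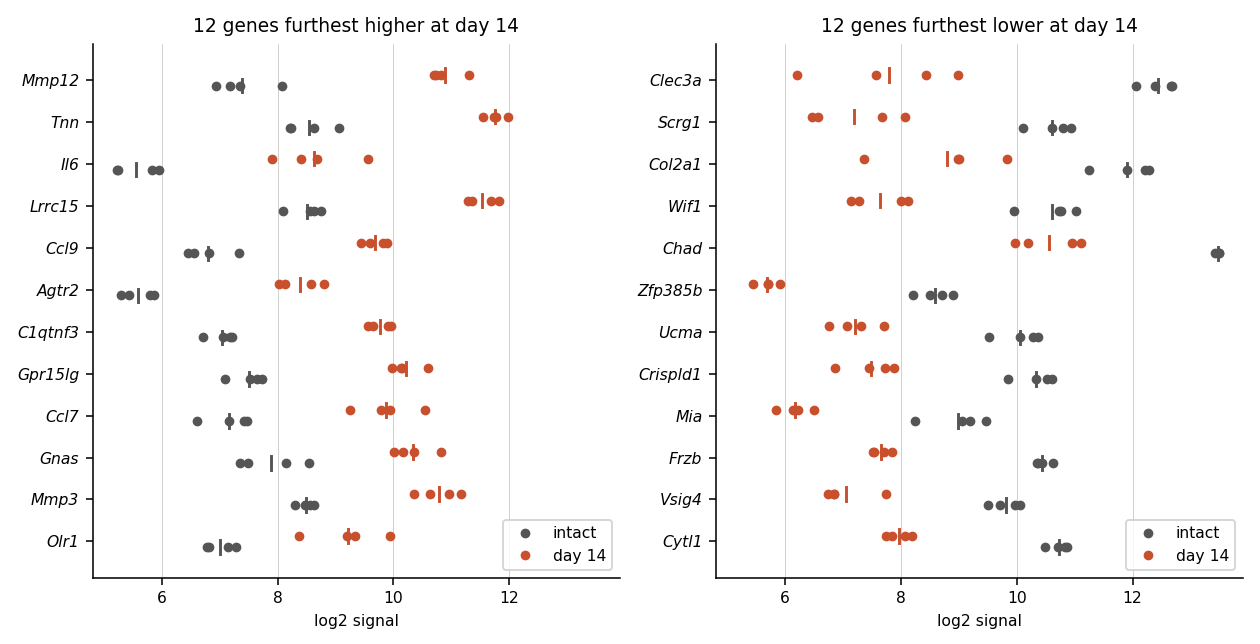
Log2 signal (horizontal axis) of the 12 genes with the largest increase (left) and the 12 with the largest decrease (right) that were called, past 2-fold and without overlap, on each of the 4 intact and 4 day 14 arrays, with group means as vertical ticks. Clec3a moved furthest (-4.65), and the day 14 values of Clec3a, Scrg1 and Col2a1 were more scattered than those of Mmp12 or Tnn.

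Cartilage genes did not fall as a block. Of 26 measured cartilage and chondrocyte genes 15 were lower, none was higher and 11 were not called (median -1.21), and 10 were lower with the marrow covariate. Col2a1 gave 12.28, 11.90, 12.21 and 11.24 in intact tissue and 9.83, 8.99, 7.36 and 9.00 at day 14, and the difference was -3.12 ± 0.66, adjusted p = 0.0051. Day 14 replicate 3, the array richest in muscle, had the lowest Col2a1 and Clec3a values of the 4. The Col2a1 call was lost with both marker means as covariates (-2.61, adjusted p = 0.097) and with the marrow mean alone (-2.90, adjusted p = 0.051), and the part of muscle and marrow in it was not tested. Genes of the intermediate layer matrix, Cilp (-2.56 ± 0.18, adjusted p = 1.4e-06) and Cilp2 (-1.60 ± 0.19, adjusted p = 8.9e-05), fell as well, as did Snorc (-1.64), a transmembrane proteoglycan of chondrocytes, and the type XI collagen chain Col11a2 (-0.73). Aggrecan stood apart from them. Acan signals were 11.80, 11.49, 11.61 and 10.93 on the intact arrays and 11.62, 11.45, 11.40 and 11.62 at day 14, so that the groups overlapped and the difference was 0.07 ± 0.36, adjusted p = 0.93. The chondrocyte transcription factor Sox9 (-0.33 ± 0.11, adjusted p = 0.051) and the lubricant Prg4 (-0.16 ± 0.11, adjusted p = 0.38) were not called, while Sox6, which acts together with Sox9, was lower (-0.88 ± 0.18, adjusted p = 0.004).

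The small leucine-rich proteoglycans, which bind collagen fibrils, were mixed. Of 11 members 3 were higher, Aspn (0.98 ± 0.21, adjusted p = 0.0048), Lum (0.91 ± 0.10, adjusted p = 3.8e-05) and Ogn (0.43 ± 0.08, adjusted p = 0.0016), and Chad was the 1 lower member. Fibromodulin (Fmod) was not called against intact (-0.37 ± 0.35, adjusted p = 0.53) but was higher than at day 2, its values being 10.64, 9.89, 8.36 and 8.72 at day 2 and 12.18, 12.00, 12.02 and 11.97 at day 14, a difference of 2.64 ± 0.35, adjusted p = 8.3e-05. Decorin (Dcn) gave -0.01 ± 0.07, adjusted p = 0.93. Genes of hypertrophic cartilage and mineralising bone showed 1 higher (Enpp1, a pyrophosphate-generating enzyme, 0.70 ± 0.12, adjusted p = 0.0013) and 4 lower of 21. The lower ones included the osteoblast protein osteocalcin (Bglap, -0.92), the osteoblast transcription factor Dlx5 (-0.77) and the chondrocyte signal Ihh (-0.62). With the marrow mean as a covariate no gene of the list was lower. The count was 2 without day 14 replicate 3 or 4 or intact replicate 1 or 2. The Bglap call was lost without any array but day 14 replicate 2 and intact replicate 4 (adjusted p from 0.073 to 0.14). Col10a1, the collagen of hypertrophic cartilage, had a difference of -1.75 ± 0.66, adjusted p = 0.092.

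Matrix of soft tissue increased. Of 20 fibrillar and soft tissue collagens 13 were higher and none lower (median 0.52), led by Col12a1 (1.75 ± 0.13, adjusted p = 1.7e-06), which coats collagen I fibrils, by Col8a1 (1.38 ± 0.13, adjusted p = 1.8e-05), a short-chain collagen of vessels and wounds, and by Col5a3 (1.33 ± 0.14, adjusted p = 2.4e-05), a regulator of fibril diameter. All chains of type V collagen and the chains Col6a2 (0.58) and Col6a3 (0.88) of type VI collagen rose. Of the bulk collagens of fibrous tissue Col1a1 was not called (0.11 ± 0.06, adjusted p = 0.26) and Col3a1 rose by 0.41 ± 0.10, adjusted p = 0.013. Of 24 genes of collagen processing 13 were higher and 3 lower. The prolyl 4-hydroxylase subunit P4ha3 rose by 1.80 ± 0.24, adjusted p = 0.00017, whereas the prolyl 3-hydroxylase P3h2, which acts on cartilage and basement membrane collagens, fell (-2.24 ± 0.15, adjusted p = 7.5e-07). The chaperone Serpinh1 (0.59) and the cross-linking enzyme Loxl1 (0.73) rose too, and the related enzyme Loxl3 (-0.56) fell. With the marrow covariate 8 genes of this list were higher, and with both covariates 1 was lower.

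Genes of activated fibroblasts gave the highest share of increases of any list, with 18 of 23 higher, 1 lower and a median of 0.82. Beside Tnn, Lrrc15 and C1qtnf3, the collagen triple helix repeat protein Cthrc1 rose by 2.14 ± 0.13, adjusted p = 4e-07 and the matricellular protein periostin (Postn) by 1.13 ± 0.14, adjusted p = 0.0001. Thbs4 (1.01), Adam12 (1.21) and the membrane protein Pdpn (0.65), a marker of synovial fibroblasts, were also higher. The fibroblast protease Fap (-0.12 ± 0.16, adjusted p = 0.68) and fibronectin (Fn1, 0.04 ± 0.06, adjusted p = 0.71) were not called, and the 1 lower gene was the collagen receptor Ddr2 (-0.26 ± 0.08, adjusted p = 0.036), whose call was lost without any array but day 14 replicate 1 and intact replicate 3 (adjusted p from 0.059 to 0.11). With both marker means as covariates 17 of these genes were higher and none lower. Of 15 elastic fibre genes 7 were higher, including the microfibril protein Mfap4 (1.17 ± 0.24, adjusted p = 0.0039) and the latent TGF-beta binding protein Ltbp2 (1.00 ± 0.18, adjusted p = 0.0016), and 2 were lower, among them fibulin-3 (Efemp1, -0.75 ± 0.14, adjusted p = 0.0018). The elastic fibre count of higher genes was 3 with the marrow covariate and 1 with both. Hyaluronan, the large glycosaminoglycan of synovial fluid, is made by Has enzymes, and Has2 rose by 1.54 ± 0.25, adjusted p = 0.00085. The hyaluronan-binding proteoglycan versican (Vcan, 1.10 ± 0.16, adjusted p = 0.0003), the receptor Cd44 (0.57 ± 0.10, adjusted p = 0.0014) and the hyaluronidases Hyal1 (0.63) and Hyal2 (0.38) were among the 7 of 10 genes of this list that were higher, and none was lower, the count being 4 with the marrow covariate and 3 with both.

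**Figure D3:**
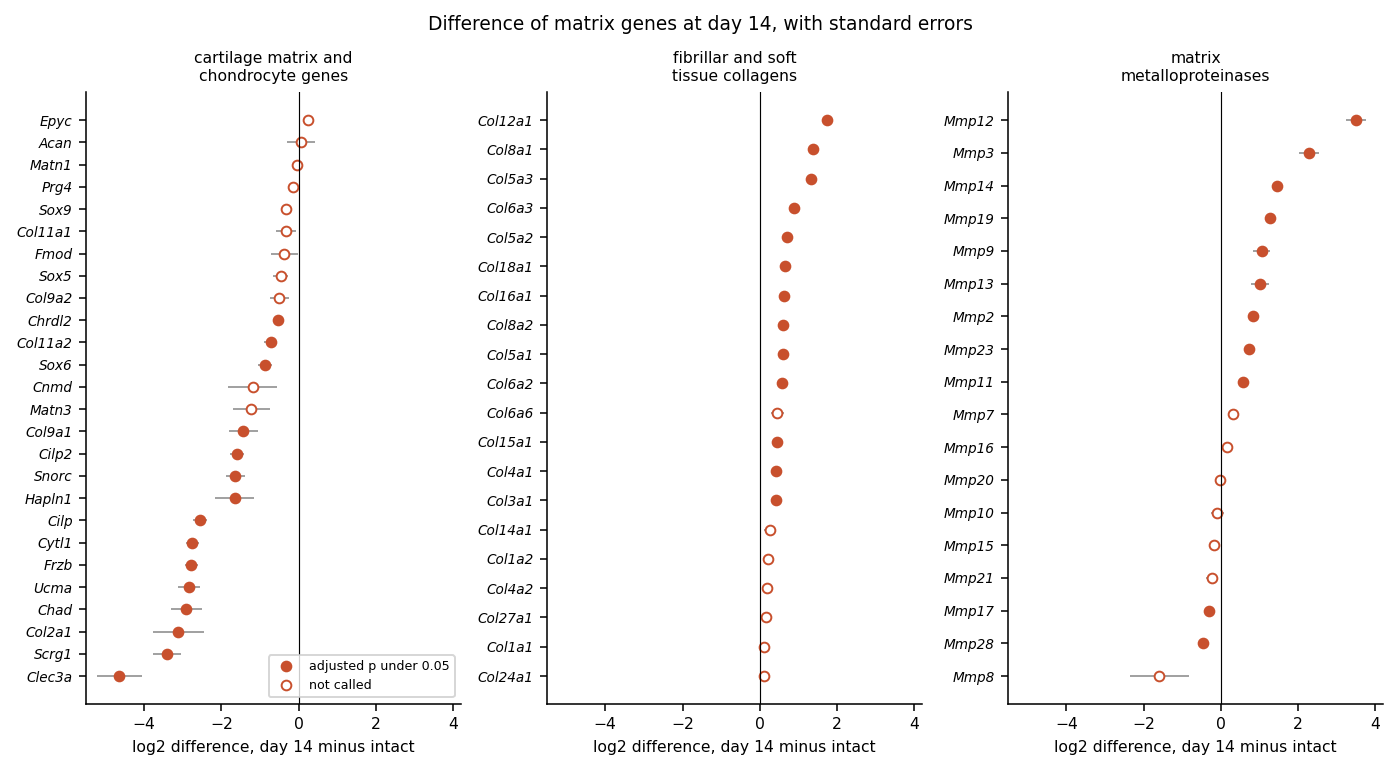
Log2 difference between day 14 and intact (horizontal axes) with standard error bars for the measured members of 3 lists, with filled symbols for genes with an adjusted p under 0.05. Cartilage genes spread from -4.65 (Clec3a) to values near 0 (Acan, 0.07), soft tissue collagens were at or above 0, and Mmp12 lay furthest to the right (3.50).

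Of 18 matrix metalloproteinases 9 were higher and 2 lower (median 0.45). After Mmp12 and Mmp3 came the membrane-type enzyme Mmp14 (1.46 ± 0.10, adjusted p = 1.5e-06), which activates other metalloproteinases at the cell surface, and Mmp19 (1.27 ± 0.12, adjusted p = 1.7e-05). The gelatinases Mmp9 (1.05 ± 0.21, adjusted p = 0.0038) and Mmp2 (0.84 ± 0.10, adjusted p = 0.00012) were higher too. So was the collagenase Mmp13 (1.02 ± 0.23, adjusted p = 0.0078), the main collagen II-cleaving enzyme of cartilage. Mmp13 values were 11.68, 11.25, 11.50 and 10.31 in intact tissue and 12.30, 12.43, 11.82 and 12.27 at day 14, a narrow separation. The call was lost in a fit to the 8 arrays alone (adjusted p = 0.057). The neutrophil collagenase Mmp8 followed the marrow genes (day 14 values 7.71, 11.26, 9.39 and 8.17 against 10.61, 10.81, 10.75 and 10.77) and was not called (-1.60 ± 0.76, adjusted p = 0.19). Mmp28 (-0.46) was 1 of the 2 lower members, a count that was 1 without day 14 replicate 3 or 4 or intact replicate 1, 3 or 4.

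Because several raised metalloproteinases lie in one gene cluster and are known targets of the transcription factor AP-1, their RefSeq promoters (GRCr8, 250 bases before to 50 after the annotated start) were searched for the heptamer TGANTCA, which reads the same on both strands. It takes in the AP-1 site TGA(C/G)TCA but also A or T in the middle, so the shares below are not counts of the AP-1 site alone. The heptamer was found in 7.33% of 33469 promoters. Promoter sequence was at hand for 3 of the 6 metalloproteinases past 2-fold, and all 3 held it, as did 3 of the 9 other metalloproteinases with a promoter, Mmp7 (0.32), Mmp10 (-0.09) and Mmp20 (-0.02), none of which was called. Among all genes past 2-fold, 16 of 115 higher genes (13.9%) and 14 of 204 lower genes (6.86%) held the heptamer in their promoter. Of all measured genes with a promoter, 994 of 14564 (6.83%) held it. A match is a description of the letters and not evidence of binding. The 120 bases before the start of the 3 genes are shown to place the heptamer, in capitals, at base -87 in Mmp12 (chr8:12866532-12866651, plus strand), -71 in Mmp3 (chr8:12925161-12925280, plus strand) and -66 in Mmp13 (chr8:12782709-12782828, plus strand), counted from the start to its first base.
Mmp12: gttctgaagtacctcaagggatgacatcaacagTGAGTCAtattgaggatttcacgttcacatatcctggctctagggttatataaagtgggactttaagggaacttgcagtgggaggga
Mmp3: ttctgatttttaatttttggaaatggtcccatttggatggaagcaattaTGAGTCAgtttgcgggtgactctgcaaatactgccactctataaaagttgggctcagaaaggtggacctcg
Mmp13: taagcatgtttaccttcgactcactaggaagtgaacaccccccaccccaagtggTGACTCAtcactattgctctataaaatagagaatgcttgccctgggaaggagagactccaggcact

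Of the aggrecan-cleaving ADAMTS enzymes and their relatives 4 of 16 were higher and 2 lower. Adamts4, an aggrecanase, rose by 1.97 ± 0.16, adjusted p = 3.7e-06, and Adamts1 (1.30 ± 0.17, adjusted p = 0.00015) and Adamts15 (1.25 ± 0.20, adjusted p = 0.00057) rose too. Adamts5, the second main aggrecanase, did not follow, with 8.33, 8.95, 8.71 and 9.13 on the intact and 8.55, 8.53, 8.97 and 8.82 on the day 14 arrays (-0.06 ± 0.19, adjusted p = 0.87). Inhibitors of matrix proteases were split, with 5 of 18 higher and 5 lower. Timp1 (1.23 ± 0.11, adjusted p = 1.1e-05) and the Kunitz inhibitor Tfpi2 (1.48 ± 0.18, adjusted p = 8e-05) rose. Timp3, the inhibitor of ADAMTS enzymes that stays bound to matrix, fell (-0.57 ± 0.11, adjusted p = 0.0021), as did Timp4 (-1.03 ± 0.20, adjusted p = 0.0028) and the membrane-anchored inhibitor Reck (-0.69). Serpina1, alpha-1 antitrypsin, fell furthest (-1.78 ± 0.16, adjusted p = 1.1e-05).

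Macrophage genes moved in both directions. Vsig4, a complement receptor of resident macrophages, lay at 9.72, 9.97, 9.50 and 10.05 in intact tissue and at 7.75, 6.75, 6.86 and 6.85 at day 14 (-2.76 ± 0.24, adjusted p = 7.2e-06). Some other genes known from tissue-resident macrophages were lower as well, namely the haemoglobin scavenger receptor Cd163 (-1.47 ± 0.28, adjusted p = 0.0025), the phosphatidylserine receptor Timd4 (-1.29 ± 0.27, adjusted p = 0.0043) and the hyaluronan receptor Lyve1 (-1.16 ± 0.20, adjusted p = 0.0012). The same list holds Mrc1, Folr2, Stab1, Siglec1 and Marco, most of which were not called lower, so these decreases do not stand for all genes of resident macrophages. The fractalkine receptor Cx3cr1 (1.28 ± 0.14, adjusted p = 4.4e-05), Gpnmb (1.09 ± 0.15, adjusted p = 0.00024), a glycoprotein of lipid-loaded macrophages and osteoclasts, and the lysosomal protein Cd68 (0.90 ± 0.13, adjusted p = 0.00029) were higher. Over 28 genes 7 were higher and 5 lower with a median of 0.10, and the pan-macrophage receptor Csf1r was not called (0.29 ± 0.11, adjusted p = 0.08). Antigen presentation genes were near the intact level, with 2 of 17 higher (Itgax, 0.60, and Cd86, 0.45) and Cd74 at 0.01 ± 0.09, adjusted p = 0.96.

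Of 18 listed genes of the osteoclast 13 were measured, and of these 8 were higher, 2 lower and 3 not called (median 0.58). Atp6v0d2, a subunit of the osteoclast proton pump that also takes part in cell fusion, was at 7.10, 7.40, 7.31 and 6.20 on the intact arrays and at 8.96, 9.03, 8.29 and 9.01 at day 14. The 4 day 14 arrays all lay above the intact ones (1.82 ± 0.29, adjusted p = 0.00064). Cathepsin K (Ctsk, 1.02 ± 0.15, adjusted p = 0.00034), the main bone collagen protease, Siglec15 (0.96), the pump subunit Tcirg1 (0.60) and the chloride transporter Clcn7 (0.51) rose together with it. The differentiation factor RANKL (Tnfsf11) rose by 0.76 ± 0.13, adjusted p = 0.0014, its receptor RANK (Tnfrsf11a) by 0.58 ± 0.11, adjusted p = 0.0018, and its soluble decoy osteoprotegerin (Tnfrsf11b) fell, from 10.02, 9.98, 10.02 and 9.74 to 8.28, 8.18, 8.32 and 8.07 (-1.73 ± 0.09, adjusted p = 1.5e-07). Carbonic anhydrase II (Car2), which is shared with red cells, was the second lower member (-1.21 ± 0.35, adjusted p = 0.031), and it was no longer called with the marrow covariate (-0.30, adjusted p = 0.24) or without any array but day 14 replicate 2 and intact replicate 3 (adjusted p from 0.061 to 0.098). The same 8 genes were higher with the marrow covariate, and 7 of them, without Siglec15, with both.

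Of 41 cytokines and chemokines 17 were higher and 5 lower. Beside Il6, Ccl9 and Ccl7 the interleukin 1 receptor antagonist Il1rn rose by 1.73 ± 0.25, adjusted p = 0.00031 and the monocyte chemokine Ccl2 by 1.38 ± 0.13, adjusted p = 1.3e-05. The IL-6 family members Lif (0.73), Il11 (0.61) and Clcf1 (0.49) were higher, as was Il1b (0.52 ± 0.10, adjusted p = 0.0029), whereas Tnf (-0.07 ± 0.14, adjusted p = 0.78) and Il1a (-0.16 ± 0.11, adjusted p = 0.35) were not called. The eosinophil chemokine Ccl11 (-1.20 ± 0.21, adjusted p = 0.0014) and the alarmin Il33 (-0.74 ± 0.19, adjusted p = 0.014) were lower. Among complement genes 2 of 21 were higher, the lectin pathway protease Masp1 (1.33 ± 0.19, adjusted p = 0.00036) and C1s (0.85), and 5 were lower, with C6 at -1.49 ± 0.28, adjusted p = 0.0021 and C3 not called (-0.21 ± 0.28, adjusted p = 0.67). Without day 14 replicate 2 the higher complement genes numbered 4, and with the marrow covariate 1. Of 20 interferon-stimulated genes none was higher and 6 were lower, a count that was 2 with the marrow covariate and without day 14 replicate 3 or 4 or intact replicate 2 or 4, and 3 without day 14 replicate 1. Rsad2, an antiviral enzyme, gave 6.67, 9.26, 7.36 and 6.22 at day 14 against 9.44, 9.42, 8.83 and 9.66, so that replicate 2 lay among the intact values and the others below them (-1.96 ± 0.58, adjusted p = 0.032). The call was lost without any array but day 14 replicate 2 and intact replicate 3 (adjusted p from 0.059 to 0.11), and with the marrow covariate Rsad2 was not called either (-0.46, adjusted p = 0.18). Isg15 was not called (-0.10 ± 0.22, adjusted p = 0.81).

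WNT pathway genes of the same role moved in both directions. The secreted inhibitors Wif1 and Frzb were among the genes that fell most, but the antagonists Sfrp1 (1.93 ± 0.21, adjusted p = 3.8e-05), Sfrp2 (1.05 ± 0.17, adjusted p = 0.00084) and Sfrp4 (0.68) rose. The ligand Wnt5a (1.20 ± 0.14, adjusted p = 7.1e-05), its co-receptor Ror2 (0.52) and the receptors Fzd2 (1.16) and Fzd1 (1.14) were higher. Fzd9 (-1.03), Fzd4 (-0.51) and the agonist Rspo3 (-1.01) were lower, and the feedback target Axin2 was not called (-0.19 ± 0.08, adjusted p = 0.14). In all 10 of 42 genes were higher and 11 lower. The lower genes numbered 7 without day 14 replicate 3 and 5 with both covariates, and the higher ones 6 with the marrow covariate.

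Of 35 genes of the TGF-beta and BMP family 4 were higher (2 with the marrow covariate) and 12 lower. Decreases concerned the BMP ligands Bmp6 (-1.38 ± 0.14, adjusted p = 2.3e-05) and Bmp4 (-0.72). They also concerned the antagonists gremlin (Grem1, -1.88 ± 0.14, adjusted p = 2.6e-06), Chrdl1 (-1.44 ± 0.18, adjusted p = 0.0001) and follistatin (Fst, -1.12), and the inhibitory Smad6 (-0.39) and Smad7 (-0.35). Inhba, the activin A subunit, rose by 1.36 ± 0.14, adjusted p = 2.3e-05. The ligands Tgfb1 (-0.03 ± 0.12, adjusted p = 0.9) and Tgfb2 (0.34 ± 0.12, adjusted p = 0.067) were not called. Of 25 IGF and FGF genes 5 were higher and 6 lower, the fibroblast-derived Fgf7 (1.15 ± 0.25, adjusted p = 0.0055) and Igf1 (0.55 ± 0.11, adjusted p = 0.0033) being among the former and Fgf1 (-0.92 ± 0.15, adjusted p = 0.0008) and Fgf2 (-0.71) among the latter. With the marrow covariate the lower genes numbered 3 and the Fgf7 call was lost (0.77, adjusted p = 0.093). Integrin and laminin genes were lower in 8 of 28 cases, among them the chondrocyte collagen receptor subunit Itga10 (-0.86 ± 0.18, adjusted p = 0.0042), and higher in 3, the fibronectin receptor chain Itga5 (0.55), the fibroblast collagen receptor chain Itga11 (0.54) and Itgb1 (0.27). The 8 lower became 4 in a fit to the 8 arrays, and the 3 higher became 1 with the marrow covariate.

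Of 23 prostaglandin pathway genes 7 were higher and 9 lower. Ptgs2, the inducible cyclooxygenase, rose by 0.81 ± 0.15, adjusted p = 0.0023, and the prostaglandin-degrading enzyme Hpgd rose by 2.04 ± 0.23, adjusted p = 4.8e-05. Ptgs1, the constitutive cyclooxygenase, fell (-0.76 ± 0.10, adjusted p = 0.00014). The receptors of prostaglandin E2 diverged, with Ptger4 higher (1.26 ± 0.11, adjusted p = 1e-05) and Ptger3 lower (-2.19 ± 0.26, adjusted p = 7.1e-05). The synthases of prostaglandin D2 (Hpgds, -1.68 ± 0.21, adjusted p = 0.00012) and prostacyclin (Ptgis, -0.87) and the lipoxygenases Alox15 (-1.97) and Alox5 (-0.77) were lower. With both covariates 4 genes of the list were higher and 5 lower.

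Genes of nerve growth and guidance were measured because pain is a feature of the model. Of 42 genes 6 were higher and 10 lower, where 12.2% of all genes were higher and 8.74% lower. The largest difference among the called members was that of Nnat (-2.62, adjusted p = 9.7e-05). The receptors of GDNF family ligands Gfra1 (1.36 ± 0.19, adjusted p = 0.00024) and Ret (1.04 ± 0.19, adjusted p = 0.0017) were higher, while the ligand Gdnf was not called (-0.11 ± 0.14, adjusted p = 0.67). Of the class 3 semaphorins, which repel or attract axons, Sema3e (-1.78 ± 0.15, adjusted p = 7.4e-06), Sema3d (-1.32 ± 0.19, adjusted p = 0.00034) and Sema3a (-1.05 ± 0.21, adjusted p = 0.003) were lower and Sema3c higher (0.38 ± 0.09, adjusted p = 0.012), and the guidance cue netrin 1 (Ntn1) fell as well (-1.47 ± 0.14, adjusted p = 1.5e-05). Bdnf (-0.21 ± 0.16, adjusted p = 0.43) and the neuropeptide genes Tac1 (-0.01) and Calca (-0.13) were not called. In the list of Schwann cell and neuronal markers, where 3 of 18 were higher and 5 lower, Uchl1 (1.62 ± 0.13, adjusted p = 3.1e-06) and the beta-tubulin Tubb3 (1.22 ± 0.19, adjusted p = 0.00056) rose, whereas the myelin protein Mbp (-0.60 ± 0.12, adjusted p = 0.0032) and S100b (-1.01 ± 0.25, adjusted p = 0.013), which chondrocytes also express, fell, the lower genes numbering 3 with the marrow covariate. Peripherin (Prph, 0.07 ± 0.11, adjusted p = 0.72), a marker of peripheral neurons, and neurofilament Nefl (-0.02) were not called.

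Fat cell genes gave the most uniform decrease of the 40 lists, 22 of 25 being lower and 1 higher, with a median of -1.52. The glycerol channel Aqp7 fell from 9.69, 10.58, 10.23 and 10.75 to 8.19, 7.69, 7.81 and 7.46 (-2.53 ± 0.21, adjusted p = 5.5e-06). The groups did not overlap, and neither did they for the adipocyte hormone adiponectin (Adipoq), with 11.24, 11.85, 11.36 and 12.15 in intact tissue and 10.31, 9.54, 9.80 and 9.51 at day 14 (-1.86 ± 0.28, adjusted p = 0.00047). The lipid droplet proteins Cidec (-2.20 ± 0.21, adjusted p = 1.5e-05) and Plin1 (-2.02 ± 0.21, adjusted p = 2.3e-05), the adipogenic receptor Pparg (-1.70 ± 0.22, adjusted p = 0.00014) and leptin (Lep, -1.60) fell together. The exception was Plin2, a droplet coat protein found in many cell types (0.49 ± 0.12, adjusted p = 0.013). With both marker means as covariates 21 genes of the list were lower. Lipid synthesis genes active in fat cells, namely the desaturase Scd (-2.15 ± 0.40, adjusted p = 0.0021), the triacylglycerol synthase Dgat2 (-1.73 ± 0.22, adjusted p = 0.00012) and the transcription factor Srebf1 (-1.08 ± 0.14, adjusted p = 0.00013), were among 5 of 23 lower genes. Among the 3 higher genes were Cyp51 (0.75 ± 0.10, adjusted p = 0.00027) and Lss (0.62), which encode enzymes of sterol synthesis.

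Of 19 genes of glycolysis and the hypoxia response 5 were higher, including hexokinase 2 (Hk2, 0.60 ± 0.07, adjusted p = 5.9e-05) and the lactate transporter Slc16a3 (0.54), and 1 was lower, the prolyl hydroxylase Egln3 (-1.04 ± 0.29, adjusted p = 0.023). The count of 5 went down to 1 under cyclic loess and with the marrow covariate, to 3 without day 14 replicate 3 or intact replicate 2 and to 2 without intact replicate 4. The Slc16a3 call was lost without day 14 replicate 1 or 3 or intact replicate 4 (adjusted p from 0.069 to 0.093) and the Egln3 call without day 14 replicate 1 or 4 or intact replicate 1 (0.054 to 0.081), and both were lost with the marrow covariate. Among stress genes 11 of 29 were higher and 4 lower, against 6 and 2 with the marrow covariate. Haem oxygenase 1 (Hmox1, 1.41 ± 0.18, adjusted p = 0.00011), the metallothionein Mt3 (1.16 ± 0.20, adjusted p = 0.0012), mitochondrial superoxide dismutase (Sod2, 0.86 ± 0.10, adjusted p = 8.5e-05) and the cystine transporter Slc7a11 (0.81) rose, and extracellular superoxide dismutase (Sod3, -0.79 ± 0.09, adjusted p = 5.4e-05) and catalase (Cat, -0.55) fell.

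Circadian clock genes moved in both directions. The activators Bmal1 and Npas2 rose, Bmal1 from 8.32, 8.08, 7.93 and 7.66 to 9.52, 9.40, 9.64 and 9.59 (1.54 ± 0.14, adjusted p = 9.8e-06) and Npas2 by 1.38 ± 0.15, adjusted p = 4.6e-05, as did the repressor Nfil3 (1.16 ± 0.14, adjusted p = 7.8e-05). Genes that the activators are known to drive fell, Dbp from 11.26, 11.52, 11.62 and 11.55 to 9.78, 9.74, 9.54 and 9.40 (-1.87 ± 0.15, adjusted p = 4.6e-06), followed by Per3 (-1.53 ± 0.14, adjusted p = 8.7e-06), Nr1d1 (-1.36 ± 0.19, adjusted p = 0.00026), Per1 (-1.25 ± 0.15, adjusted p = 6.7e-05) and Tef (-0.99). Of 17 genes 5 were higher and 8 lower, and the groups did not overlap in 13 of them. The higher ones numbered 3 under cyclic loess and with the marrow covariate. Animals were kept under a cycle of light and dark, and the hour of sampling is not given in the sources used here, so that time of day and group cannot be told apart for these genes.

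Of 18 endothelial genes 7 were lower, among them von Willebrand factor (Vwf, -0.74 ± 0.09, adjusted p = 0.00014) and endomucin (Emcn, -0.63 ± 0.08, adjusted p = 0.00018), and the leukocyte adhesion molecules Selp (0.76 ± 0.17, adjusted p = 0.0061) and Sele (0.69 ± 0.19, adjusted p = 0.023) higher. The lower genes numbered 4 without day 14 replicate 1 or intact replicate 2. The Selp and Sele calls were lost with the marrow covariate (adjusted p = 0.076 and 0.30), and that of Sele also without day 14 replicate 1 or 4 or intact replicate 1 or 4 (adjusted p from 0.066 to 0.082). Of 15 smooth muscle and pericyte genes 4 were lower, including smooth muscle myosin (Myh11, -0.79 ± 0.10, adjusted p = 0.00017), and 1 was higher (Smtn, 0.55). Mast cell markers were lower in 4 of 12 cases, with carboxypeptidase Cpa3 at -1.24 ± 0.29, adjusted p = 0.0092, and Il1rl1, the receptor of Il33, was the higher one (0.82 ± 0.13, adjusted p = 0.00063), with 2 lower and 2 higher under the marrow covariate. Of 16 genes of muscle development and regeneration 1 was higher, the adhesion molecule Ncam1 (0.86 ± 0.12, adjusted p = 0.00027), and 1 lower, the acetylcholine receptor subunit Chrna1 (-0.64), whose call was lost with the marrow covariate (adjusted p = 0.16) and without any array but day 14 replicate 3 and intact replicate 1 (0.073 to 0.13), while embryonic and regenerating fibre genes Myog (-0.03) and Myh8 (-0.11) were not called.

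**Figure D4:**
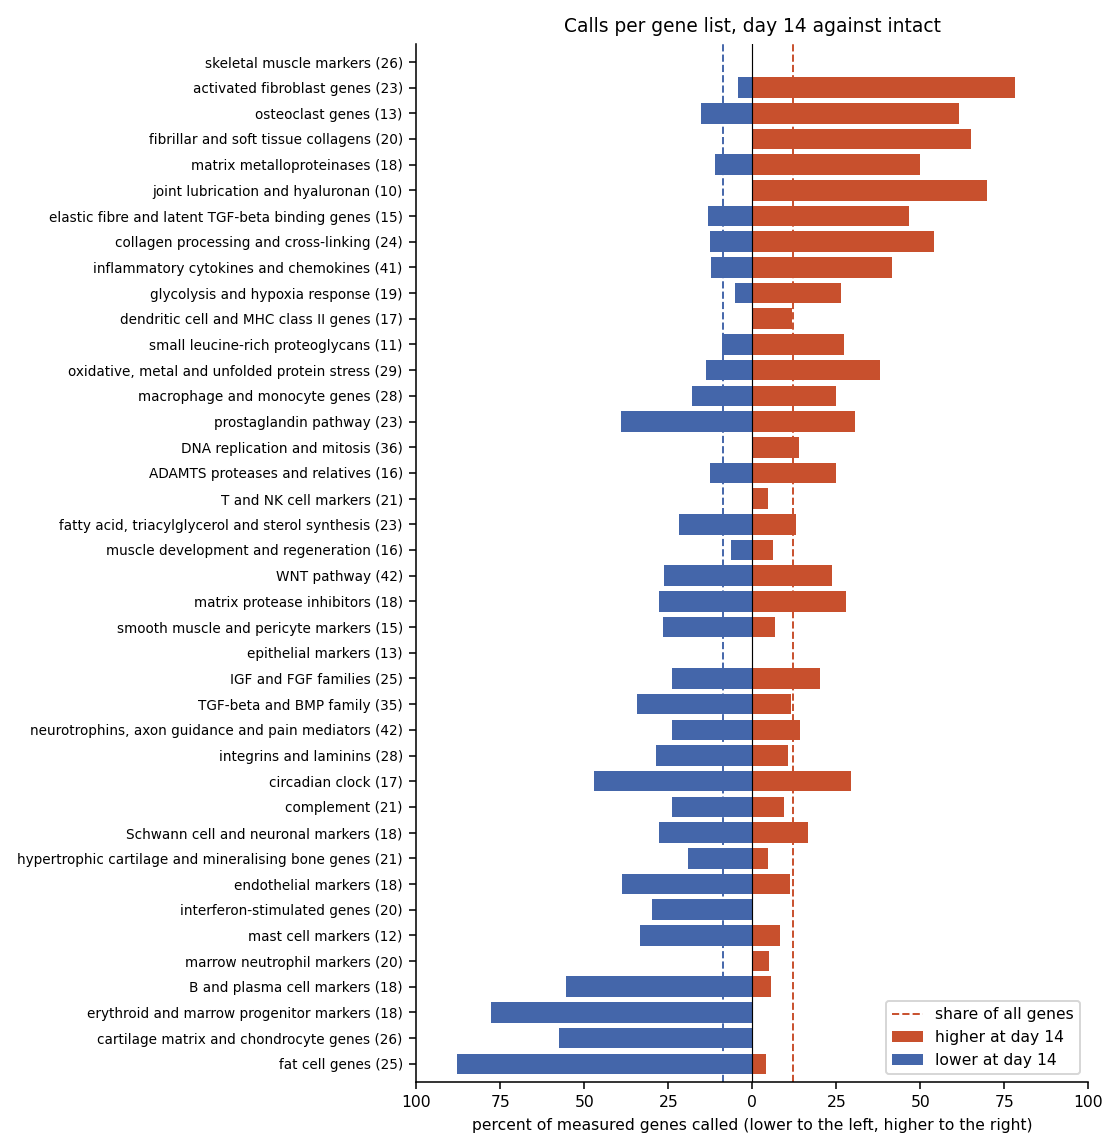
Percentage of the measured genes of each of 40 lists (number of genes in brackets) that were called higher (right) or lower (left) at day 14, ordered by the median log2 difference, with dashed lines at the shares of all genes (12.2% and 8.74%). Activated fibroblast, hyaluronan and collagen lists lie far to the right of the dashed line, fat cell, erythroid and cartilage lists far to the left, and skeletal muscle, with the highest median (1.20), has no call.

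Day 14 was then set directly against the other time points. Against day 2, 1748 genes were higher at day 14 (9.62%) and 2120 lower (11.7%). All 36 measured genes of DNA replication and mitosis were lower at day 14 than at day 2 (median -1.08). Against intact 5 of them were higher, a share near the 12.2% of all genes, and the list median was -0.01. The kinase Melk (0.56 ± 0.12, adjusted p = 0.0052) and the anaphase activator Cdc20 (0.50 ± 0.10, adjusted p = 0.0041) came first. The count of 5 was 2 without day 14 replicate 1, 2 or 4 or intact replicate 4. It was 3 without day 14 replicate 3 or intact replicate 3. Without day 14 replicate 2, 4 genes of the list were lower. Mki67, the proliferation antigen, had signals of 11.75, 11.69, 11.62 and 11.47 on the day 2 arrays and 10.28, 11.13, 10.09 and 10.35 on the day 14 arrays. In intact tissue its values were 10.92, 10.99, 10.86 and 10.96. Soft tissue collagens were higher than at day 2 in 19 of 20 cases, small leucine-rich proteoglycans in 7 of 11, and macrophage genes were lower in 18 of 28. Of the leading genes Il6 (day 14 minus day 2 0.25 ± 0.38, adjusted p = 0.78), Ccl7 (-0.42) and Olr1 (0.28) were not called between these times, while Mmp12 was higher at day 14 than at day 2 (2.81 ± 0.26, adjusted p = 4.8e-06), as did C1qtnf3 (3.22 ± 0.25, adjusted p = 1.1e-06) and Agtr2 (1.83 ± 0.30, adjusted p = 0.00063).

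Against day 28 few genes differed, 78 being higher at day 14 (0.429%) and 62 lower (0.341%). Fat cell genes made up 13 of the former, all of them lower still at day 28. Adipoq was at 7.07, 7.34, 8.34 and 7.01 at day 28, below every day 14 array (2.35 ± 0.28, adjusted p = 0.002), and the same direction was found for Cidec (1.66 ± 0.21, adjusted p = 0.0031) and for the lipogenic nuclear protein Thrsp (2.28 ± 0.26, adjusted p = 0.0012). Olr1 was higher at day 14 than at day 28 (1.41 ± 0.26, adjusted p = 0.025), and Scrg1 was lower (-1.97 ± 0.36, adjusted p = 0.028), its signals at day 28 being 9.22, 9.62, 9.12 and 8.70 against 8.08, 7.67, 6.46 and 6.58 at day 14. Osteoprotegerin (Tnfrsf11b) was also lower at day 14 than at day 28 (-0.82 ± 0.09, adjusted p = 0.0011).

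There were 10 genes higher at day 14 than in each of the other 3 groups, and none that was lower than in each. After the gene values were seen it was noted that 5 of the 10 are microRNA genes of 1 cluster on chromosome 6, in the imprinted region between the non-coding gene Meg3 and Dio3, which in mammals is expressed from the maternal chromosome and active in embryonic tissue, muscle and brain. MicroRNAs are short RNAs that repress mRNAs through their seed, bases 2 to 8. The arrays measure them through longer transcripts, since labelling started from poly(A) tails by oligo(dT) priming, so that the values do not speak of the mature microRNA or of 1 arm. Both mature arms of the 5 genes are shown from RefSeq (GRCr8, all on the plus strand), with the seed in capitals, and no seed was shared between them.
rno-miR-323-5p (chr6:134546959-134546980): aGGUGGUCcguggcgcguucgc
rno-miR-323-3p (chr6:134546994-134547014): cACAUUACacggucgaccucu
rno-miR-300-5p (chr6:134559923-134559944): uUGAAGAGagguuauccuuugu
rno-miR-300-3p (chr6:134559968-134559989): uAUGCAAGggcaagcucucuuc
rno-miR-539-5p (chr6:134563606-134563627): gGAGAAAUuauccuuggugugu
rno-miR-539-3p (chr6:134563646-134563667): cAUACAAGgguaauuucuuuuc
rno-miR-377-5p (chr6:134576463-134576484): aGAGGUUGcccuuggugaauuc
rno-miR-377-3p (chr6:134576498-134576520): uGAAUCACacaaaggcaacuuuu
rno-miR-410-5p (chr6:134579773-134579793): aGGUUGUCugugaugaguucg
rno-miR-410-3p (chr6:134579808-134579828): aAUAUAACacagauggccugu

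The log2 signals of Mir377 in intact tissue were 3.27, 4.25, 4.54 and 3.92. They were 3.28, 3.68, 3.36 and 3.18 on the day 2 arrays, 5.42, 5.39, 6.18 and 5.44 on the day 14 arrays and 4.59, 3.96, 4.02 and 4.38 on the day 28 arrays. Its 4 day 14 values were above all 12 others, although they lay below the array median of about 6.6, at the dim end of the scale. The differences of Mir377 were 1.61 ± 0.25, adjusted p = 0.00051 against intact and 1.37 ± 0.25, adjusted p = 0.025 against day 28. Mir539 gave 4.04, 4.46, 4.30 and 3.97 in intact tissue and 5.54, 5.57, 5.56 and 5.91 at day 14 (1.45 ± 0.16, adjusted p = 5.1e-05), and Mir300 (1.44 ± 0.22, adjusted p = 0.00052), Mir323 (1.34 ± 0.21, adjusted p = 0.00056) and Mir410 (1.12 ± 0.20, adjusted p = 0.0016) followed. Against intact, each of the 5 remained called with both marker means as covariates (adjusted p from 0.0025 to 0.035) and without day 14 replicate 3, the muscle-rich array (0.00021 to 0.0041). Their differences from day 28 were not examined gene by gene under these alternatives. Over all probe sets, the 100 higher than at day 28 became 35 with the muscle mean and 45 with both means, so the maximum at day 14 may depend on them. The region was not raised as a whole. Of 53 microRNA genes measured between Meg3 and Dio3 10 were higher and none lower, with a median difference of 0.08, whereas of 310 microRNA genes elsewhere 8 were higher and 16 lower with a median of -0.13. Meg3 itself was higher at day 14 (0.83 ± 0.15, adjusted p = 0.002) but not against day 28 (0.22 ± 0.15, adjusted p = 0.62), and Dlk1 (0.56 ± 0.22, adjusted p = 0.11) and Dio3 (0.06 ± 0.13, adjusted p = 0.8) at its borders were not called.

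**Figure D5:**
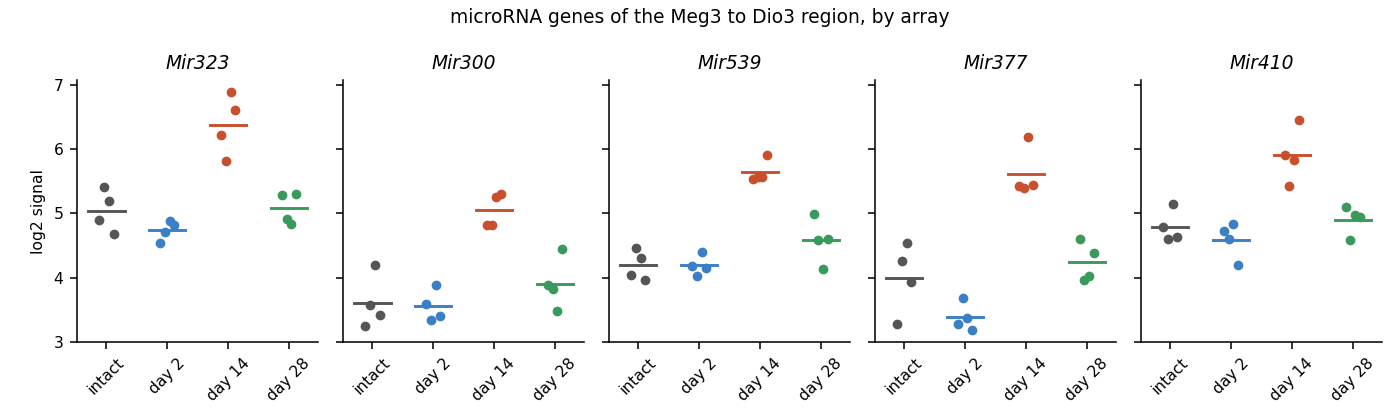
Log2 signal (vertical axis) of 5 microRNA genes of the Meg3 to Dio3 region on each of the 16 arrays, by group, with group means as lines. In every panel the 4 day 14 arrays lie at the top, with means 1.12 to 1.61 above intact.

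The other 5 genes with a maximum at day 14 code for proteins. Itm2a, a membrane protein of differentiating cartilage and muscle cells, had signals of 9.69, 9.78, 9.80 and 9.60 in intact tissue and 10.49, 10.33, 10.70 and 10.59 on the day 14 arrays. Its signals were 8.94, 8.72, 8.77 and 8.79 on the day 2 arrays and 9.95, 9.49, 9.87 and 9.59 on the day 28 arrays. The day 2 values lay below the intact ones and the day 14 values above them, and the difference from intact was 0.81 ± 0.11, adjusted p = 0.0002. The scaffold of the Ras pathway Ksr1 (0.46 ± 0.09, adjusted p = 0.0036), Neto2, an auxiliary subunit of kainate receptors (0.52 ± 0.10, adjusted p = 0.0035), and C18h18orf21 (0.33 ± 0.10, adjusted p = 0.041) moved by less. Dcx, known as doublecortin of migrating neurons, was called by a narrow margin (0.60 ± 0.19, adjusted p = 0.045), and the call was lost without any array but day 14 replicate 2 (adjusted p from 0.052 to 0.14) and with both marker means as covariates (0.21, adjusted p = 0.59).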

How the data were processed

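By the methods, labelled cRNA made from total RNA was hybridised to Affymetrix Rat Gene 2.0 ST arrays. The values used are the log2 signals deposited by the authors, who subtracted background, quantile normalised and log2 transformed them; the submitters' processing notes name the oligo package 1.36.1 and robust multi-array averaging. Scanner files were not used here. All 36685 probe sets entered the fit. Of these 18511 carry 1 gene symbol in the platform annotation, 575 several and 17599 are unnamed here, and a gene is represented by its brightest probe set (18166 genes). Linear models with 1 mean per group were fitted to all 16 arrays with limma 3.58.1 in R 4.3.3, with moderated tests (two-sided) and Benjamini-Hochberg adjustment over all probe sets. A call has an adjusted p under 0.05. The procedure was tested on simulated data with known changes. Their noise was independent between probe sets, with no shared muscle or marrow part. That test therefore checks the code and not the calls made here. Arrays of 1 group hold pools of 2 animals, and with 4 arrays a group an exact permutation test could not go below p = 0.029.

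Genes named are the 12 largest changes in each direction that were called, past 2-fold and without overlap, in each of 40 lists up to 4 called members with the largest difference and the first 2 members, and genes with an extreme at day 14, with further list members where a group is described. The comparison, the members and the lists were chosen with earlier results of these data known. Of 956 listed symbols 856 were measured. Alternatives were cyclic loess, median centring, a filter on dim probe sets, a fit to 8 arrays, array weights, trended and robust variance, the methods' t-test, the replicate number as a block, the muscle and marrow marker means as covariates, another rule for genes with several probe sets, and leaving out each array. The day 2 and day 28 arrays left out in turn were added after seeing the data. Sequences are from RefSeq, build GRCr8.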

Additional observations from a re-analysis of the deposited data

Results flagged for a closer look

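In 23 of 434 groups of 4 arrays (217 named genes in 2 groups) 1 array was marked as apart from the other 3, by the size of the gap relative to the range of the 4. The rule sets no minimum size, so that Dcn in day 14 replicate 2 was marked at 12.907 against 12.917 to 12.919. Chance meets the rule in about 1 in 20 groups, which is about the share of these 23 groups. Day 14 replicate 2, the array with marrow markers at the intact level, accounted for 11 of them, with log2 signals of C3 at 10.13, Car2 at 10.69, Cd79a at 8.76, Cd79b at 9.11, Cdh1 at 7.15, Clu at 10.94, Dcn at 12.91, Loxl1 at 10.66, Pou2af1 at 8.38, Sod2 at 9.30 and Tpsb2 at 6.87. Day 14 replicate 3, the muscle-rich array, stood apart for Atp6v0d2 at 8.29, Mir377 at 6.18 and Tgfb2 at 9.67. Day 14 replicate 1 did so for Serpina1 at 6.30 and Vsig4 at 7.75, and day 14 replicate 4 for Mir539 at 5.91. Among the intact arrays replicate 1 stood apart for Efemp1 at 9.73, Elane at 10.02 and Itgb8 at 8.24, and replicate 4 for Gfra1 at 8.74, Pgk1 at 8.70 and Tnfrsf11b at 9.74. The part of muscle and marrow in these values was not tested.

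Day 14 differed from the other time points by the test of the difference itself. Against day 2, 1748 genes were higher and 2120 lower, and 99 of the 217 named genes were among the calls. Against day 28, 78 were higher and 62 lower, with 22 named genes among them. Higher at day 14 than at day 28, in log2 units, were Olr1 (1.41), Aqp7 (1.54), Cidec (1.66), Thrsp (2.28), Il1rl1 (0.74), Eln (0.67), Adipoq (2.35), Plin1 (1.40), Mir377 (1.37), Mir323 (1.30), Mir300 (1.14), Mir539 (1.07), Mir410 (1.01), Itm2a (0.80), Dcx (1.08) and Neto2 (0.57). Lower were Scrg1 (-1.97), P3h2 (-1.23), Egln3 (-1.62), Hk2 (-0.37), Tpsb2 (-0.78) and Tnfrsf11b (-0.82).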

How the results depend on the processing

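None of the 173 named genes that were called changed sign under the alternatives tried. They were picked largely by their calls in these same arrays, so that a change of sign was unlikely beforehand, and 88 of them lost the call by the methods' t-test after adjustment. Of the 44 not called 25 changed sign under at least 1 alternative, such as C3 (-0.21, against 0.54 with both marker means), Mki67 (-0.47, against 0.06) and Acan (0.07, with a lowest value of -0.11). The median of the neutrophil list went from -1.03 to 0.34 with the marrow mean, which is built in part from these same genes. The 3350 higher and 2206 lower probe sets became 2071 and 1309 in a fit to the 8 arrays, 1425 and 1094 with the marrow mean as covariate, 1547 and 1399 with both marker means, and 860 and 420 by the methods' t-test after Benjamini-Hochberg adjustment. Past 2-fold, 379 higher became 248 with only probe sets above the median level, 251 with the marrow mean and 190 by the methods' t-test after adjustment, and 345 lower became 141 by the latter. At the methods' own threshold 34 and 28 were left. Against day 2, 2460 higher and 2871 lower became 1562 and 1744 with both marker means and 1366 and 1402 by the methods' t-test. Against day 28, 100 higher and 69 lower became 173 and 162 with the filter, 18 and 9 in the 8-array fit, 258 and 176 with array weights, 35 and 18 with the muscle mean, and 45 and 17 with both means, and 118 were lower with trended and robust variance. The methods' t-test after adjustment called 0 in either direction against day 28, where limma had 2047 higher and 2122 lower at an unadjusted p under 0.05. The cause of these changes was not tested, beyond the fewer arrays or probe sets that some alternatives use.

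Leaving out 1 array gave 2266 to 3325 higher and 1461 to 2351 lower probe sets (1461 without day 14 replicate 4), 306 to 440 and 262 to 492 past 2-fold, 1957 to 2506 and 2169 to 2912 against day 2, and 44 to 121 and 25 to 79 against day 28. Against day 28 higher probe sets numbered 63, 61 and 44 without day 14 replicates 1, 3 and 4 and 57, 64 and 55 without day 28 replicates 1, 3 and 4, and lower ones 38, 34 and 25 without day 14 replicates 2, 3 and 4 and 29, 45, 45 and 40 without day 28 replicates 1 to 4. For the 173 called genes 1677 of 1889 values under other alternatives kept the call and 212 lost it, and 1280 of 1384 with 1 array left out kept it and 104 lost it. The genes not called gained a call in 16 of 474 and 9 of 352 values. Higher probe sets were 60.3% of calls, 70.2% after median centring and 52.2% after cyclic loess.

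Arrays of day 14 and intact with the same replicate number had correlated deviations of 0.18, -0.03, 0.32 and 0.11 from their group means, not all over 0.1, and 2 of the 4 day 14 arrays were closest to the intact array of their own number. The correlations of day 14 with day 28 were 0.12, 0.46, -0.10 and -0.04 for replicates 1 to 4. Those with day 2 were -0.01, -0.01, -0.07 and -0.06. No label ties a number to a shared animal or day, so the numbers were not taken to pair the arrays. With the replicate block 2946 probe sets were higher and 2041 lower, 368 and 360 past 2-fold, 2263 and 2603 against day 2, and 76 and 66 against day 28. Dim probe sets, such as those of the microRNA genes, lie near background, and precision is set by 4 arrays a group.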
